A study of Mus musculus with 67 samples.

Results

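Collagens and the extracellular matrix were examined in mouse cerebral cortex. The members were chosen by gene symbol: collagen chains other than Col6a2, laminin chains, matrix metalloproteinases (Mmp), their tissue inhibitors (Timp), Adamts proteases, integrin chains other than Itga8, and a short list of matrix glycoproteins and proteoglycans. A probe entered only where the platform annotation gave it exactly 1 gene symbol, and a gene with several probes was represented by the probe of highest mean z. This gave 38 genes of the 4209 genes that a probe of 1 symbol names, and these 38 genes were carried by 50 of the 8448 probes. They were 5 fibrillar collagens, 9 basement membrane chains and proteins, 6 other collagens, 5 matrix glycoproteins and small proteoglycans, 7 proteases, 3 Timp inhibitors and 3 integrins.

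The study set out to learn how age, diet and sex act on the transcriptome. Radiolabelled cDNA of each of 67 male and female C57BL/6 mice was hybridised to 1 filter of cDNA probes. The study's methods give single housing in 1 facility and name ages of 6, 16 and 24 months only. Ad libitum (AL) mice received regular feed throughout and were 17-21 days, 33-44 days, 6 months, 16 months or 24 months old (40 mice). Caloric restriction (CR) mice were 6, 16 or 24 months old (27 mice): they had regular feed to 13 weeks, then fortified feed at 90% and 75% for 1 week each, and at 60% from then on. Each age, diet and sex held 2 to 5 mice, and each array stood for 1 animal. The deposited value is a z-score, a log intensity scaled so that the spots of each array average 0 with an SD of 1, and differences are therefore in SDs of 1 array and are not fold changes. The whole cortex was used, so fewer matrix-producing cells and less RNA per cell cannot be told apart.

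The extracellular matrix is the protein and sugar network around cells. In most organs fibrillar collagens form its cables, but the brain interior holds few of them: there, collagen IV, laminins, nidogen and perlecan form the basement membrane sheets of blood vessels and of the pial surface, while fibrillar collagens are known mainly from the meninges and vessel walls. Integrins anchor cells to this network, and metalloproteinases and Adamts enzymes cut it while Timp proteins block them.

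None of the 38 genes passed an adjusted p of 0.05 in any of 15 comparisons of age, diet and sex (limma, Benjamini-Hochberg over 8448 probes), and 0 passed with array set, described in the next paragraph, as a block. The smallest adjusted p was 0.296 without the block and 0.113 with it, both between 33-44 and 17-21 days. In that comparison 0.0947% of all probes passed without the block and 0.829% with it, and in the other 14 comparisons 0% did in either fit. With array cycle (5 stretches of consecutive array numbers in which the groups recur) added as a second block 0 members passed, beside 0.249% of all probes between 33-44 and 17-21 days and 1.09% between 24 and 16 months on AL. With neighbouring spots subtracted 0 members passed, beside 0.0118% of all probes between 6 months and 17-21 days. At an unadjusted p under 0.05 the matrix genes numbered 7 between 33-44 and 17-21 days, where 14% of all probes were under this limit. They numbered 2 between 6 months and 33-44 days (5.31% of all probes), 1 between 24 and 16 months on AL (6.57%), 2 between 24 and 6 months on AL (2.89%) and 1 between 24 and 6 months on CR (3.42%). They also numbered 2 between CR and AL at 6 months, where 0.462% of all probes were under the limit, and 0 in the remaining 9 comparisons. In those 9 the shares of all probes were 3.46% at 6 months against 17-21 days, 3.04% at 16 against 6 months on AL, 4.15% at 24 against 16 months on CR, 1.03% and 1.04% for diet at 16 and 24 months, 0.71% for diet over 3 ages, 0.971% for sex, 0.888% for diet by age and 0.0947% for sex by age. The share of members stood above the share of all probes at 33-44 against 17-21 days, at 24 against 6 months on AL and at CR against AL at 6 months, and in the last of these it was 2 genes.

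The study's methods select genes by another rule, run here in part as an alternative, since their further analysis of variance over age, sex and diet was not run: the difference divided by the SD of all differences (the z-ratio) reaches 1.5 either way, the groups average above 0, and an ordinary per-gene test, without limma's moderation, gives an unadjusted p under 0.05. It was met by 1 of the 38 genes in each of 5 comparisons, named with their genes further on. It was met by 0 of the 38 in the other 10, where the shares of all probes were 0.651% for 33-44 against 17-21 days, 0.414% for 16 against 6 months on AL, 1.29% and 1.41% for 24 against 16 and 6 months on CR, 0.118%, 0.485% and 0.355% for diet at 16 months, at 24 months and over 3 ages, 0.651% for sex, 0.26% for diet by age and 0.0592% for sex by age.

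Arrays numbered 46 to 67 (22 arrays) stood apart from the 45 before them on the first principal component, which held 48.1% of the variance. The labels do not say what separates these array sets. The step was found in the values, so its size is a description: the median size of the difference between array sets was 0.28 z over the 38 genes and 0.22 z over all probes, and 25 of the 38 were higher in the later set. For 30 of the 38 it was larger than the largest AL difference among 6, 16 and 24 months. Lama3, a laminin alpha chain, had a mean z of -0.12 in the earlier set and -1.09 in the later set. Col4a5, a collagen IV chain, had -0.34 and -1.24, and Mmp2, a gelatinase, had 0.33 and 1.05. In these 3 genes the sets did not overlap, and the share of all probes without overlap was not counted. A pair of 16 months AL arrays, numbered here as male replicate 2 and female replicate 2, correlated at 0.99975 (0.989 for the next closest pair of arrays). They had the same value at 21 of the 38 genes. They were counted as 1 sample, with their mean, in the values printed for 16 months AL, and their labels give 1 male and 1 female. The fits hold both, and a printed difference of a named matrix gene is also given without them where that moves it by over 1.5 times. Marker genes were few on this filter: of 104 listed for 9 cell types, 17 were measured, among them the neurofilament gene Nefl with a mean z of 0.25 as the single neuronal gene, and none for endothelium, oligodendrocytes or choroid plexus. The labelled tissue could therefore be checked only in part.

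**Figure D1:**
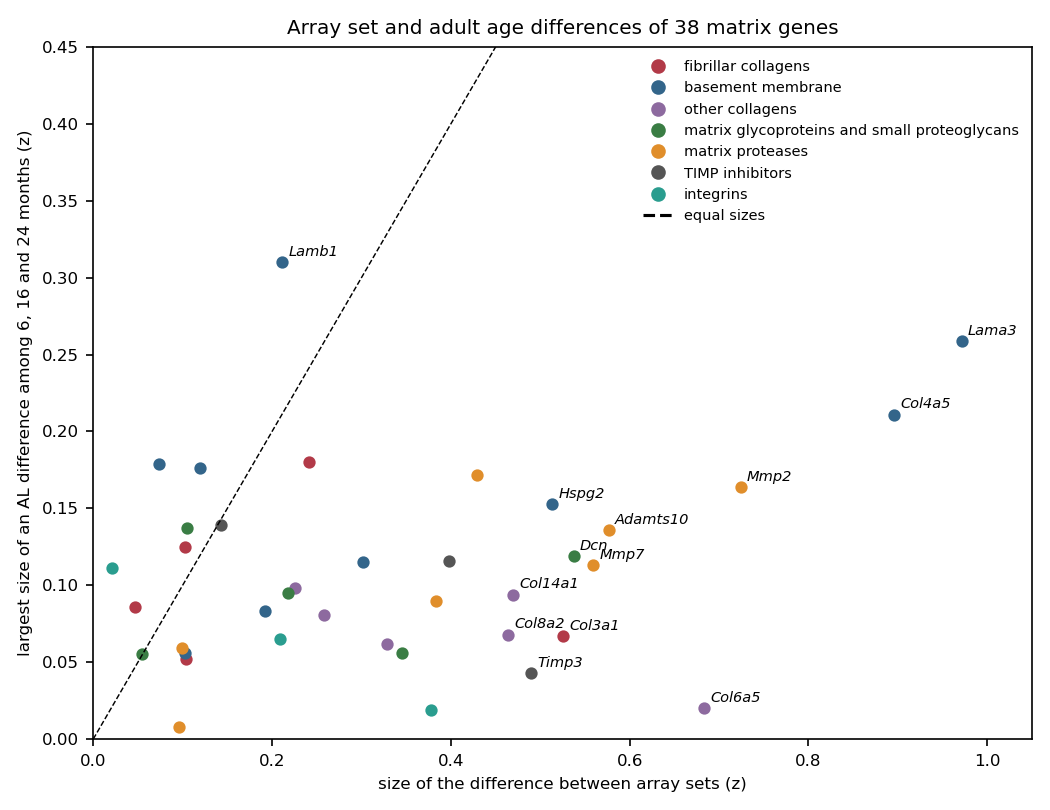
Each point is 1 of the 38 matrix genes. The x axis gives the size of its difference between arrays 46-67 and arrays 1-45 and the y axis the largest size of its AL difference among 6, 16 and 24 months, both in z. Points under the dashed line of equal sizes differed more between array sets than with adult age, which held for 30 of 38 genes; Lamb1 lies above it.

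The fibrillar collagens were Col1a1 and Col1a2, the chains of collagen I, Col3a1, the chain of collagen III, and Col5a1 and Col5a2, chains of the fibre-nucleating collagen V. Col1a1 had group means from 0.23 to 0.45 z, Col1a2 from 0.48 to 0.67, Col3a1 from 0.90 to 1.26 and Col5a2 from 1.01 to 1.29, so their spots were brighter than their array's mean in every group. The Col5a1 spot lay below it, with group means from -2.25 to -2.05. The promoter table held the 250 bases before the start for 26 of the 38 genes (RefSeq, GRCm38.p6). A pair of fibre-forming chains is printed here because their spots are set against each other further on, and neither window reaches into the transcript. Capitals mark string matches to the CCAAT box, the TATA box (TATAAA) and the GC box (GGGCGG), each searched on both strands and none overlapping another. The search did not use position, so a match is not shown to be a working box.
Col1a2 (chr6:4505368-4505617, plus strand): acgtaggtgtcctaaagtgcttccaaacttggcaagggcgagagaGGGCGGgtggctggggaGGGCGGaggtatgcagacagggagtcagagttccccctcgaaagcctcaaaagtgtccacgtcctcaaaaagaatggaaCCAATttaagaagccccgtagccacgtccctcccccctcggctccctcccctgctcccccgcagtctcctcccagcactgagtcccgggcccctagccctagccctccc
Col3a1 (chr1:45311288-45311537, plus strand): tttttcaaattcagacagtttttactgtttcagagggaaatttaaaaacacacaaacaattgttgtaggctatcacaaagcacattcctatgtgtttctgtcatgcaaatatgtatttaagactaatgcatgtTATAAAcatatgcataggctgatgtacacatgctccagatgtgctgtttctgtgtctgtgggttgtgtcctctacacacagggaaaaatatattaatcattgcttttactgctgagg
The Col1a2 window held 62% G and C, GGGCGG 205 and 188 bases before the start and CCAAT 109 bases before it. The Col3a1 window held 35.2% G and C and TATAAA 117 bases before the start. Over all 32851 windows of this length, CCAAT was present in 33.8%, TATAAA in 12.4% and GGGCGG in 32.7%. Over the 26 matrix genes the counts were 11 for CCAAT, 2 for TATAAA and 17 for GGGCGG.

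With age, the fibrillar collagens differed by less than the array spread could settle. Between 24 and 16 months on AL all 5 had a higher mean at 24 months, with differences from 0.015 to 0.18 z and none passing. Without the near-identical arrays 3 of the 5 were higher. Col5a2 ran from 1.05 to 1.55 over 10 arrays at 24 months (median 1.27) and from 0.71 to 1.39 over 9 samples at 16 months (median 1.2). The groups overlapped, with 8 of 10 arrays of 24 months above the mean of 16 months. Its difference was 0.18 (95% interval -0.0010 to 0.36, adjusted p = 0.768 by limma), and 0.13 without the near-identical arrays. Over all 15 collagen chains, 13 were higher at 24 months, Col18a1 was lower and Col6a1 did not differ (0 z), against 48.2% of all probes higher. Without the near-identical arrays 11 of the 15 were higher. The count was 10 within arrays 1-45 and 9 after neighbouring spots were subtracted. On CR the same ages gave 8 of 15 chains higher at 24 months, beside 47.1% of all probes. The 5 fibrillar collagens were all higher there too, by 0.0010 to 0.12 z with a median of 0.084 and none passing, and 2 of the 5 were higher within arrays 46-67. The interaction of diet and age was below 0 for 11 of 15 chains, and for 9 without the near-identical arrays, and 0 of them passed.

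Col3a1 was higher at 6 months than at 17-21 days. Its 5 values at 17-21 days were 0.70, 0.72, 0.90, 1.00 and 1.17, and at 6 months on AL it ran from 0.89 to 1.68 over 10 arrays with a median of 1.23. The groups overlapped, and 9 of 10 arrays of 6 months lay above the mean of 17-21 days. The difference was 0.31 (95% interval -0.032 to 0.65, adjusted p = 0.815 by limma). All 17-21 days arrays belonged to the earlier array set, and the difference was 0.15 with array set as a block and 0.21 within arrays 1-45. Col3a1 met the selection rule here, with a z-ratio of 1.98, as did 1.15% of all probes. The 4 probes of Col3a1 gave -0.18, 0.31, 0.047 and 0.17 for the same comparison.

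Col5a1 was lower on CR at 6 months. It ran from -2.65 to -2.0 over 9 CR arrays (median -2.19) and from -2.25 to -1.66 over 10 AL arrays (median -2.11), with 7 of 9 CR arrays below the AL mean. The ranges overlapped. The difference was -0.21 (95% interval -0.39 to -0.023, unadjusted p = 0.0283, adjusted p = 1 by limma) and -0.20 with array set as a block. At 33-44 against 17-21 days Col1a1 was lower by the means (difference -0.22, unadjusted p = 0.045, adjusted p = 0.352 by limma), with values of 0.02, 0.04, 0.18, 0.42 and 0.48 at 33-44 days against 0.31, 0.35, 0.38, 0.58 and 0.62. Those ranges overlapped too. Col1a2 differed by 0.086 between 24 and 6 months on AL, by 0.12 between 24 and 16 months on CR and by 0.058 between females and males (unadjusted p from 0.105 to 0.188).

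**Figure D2:**
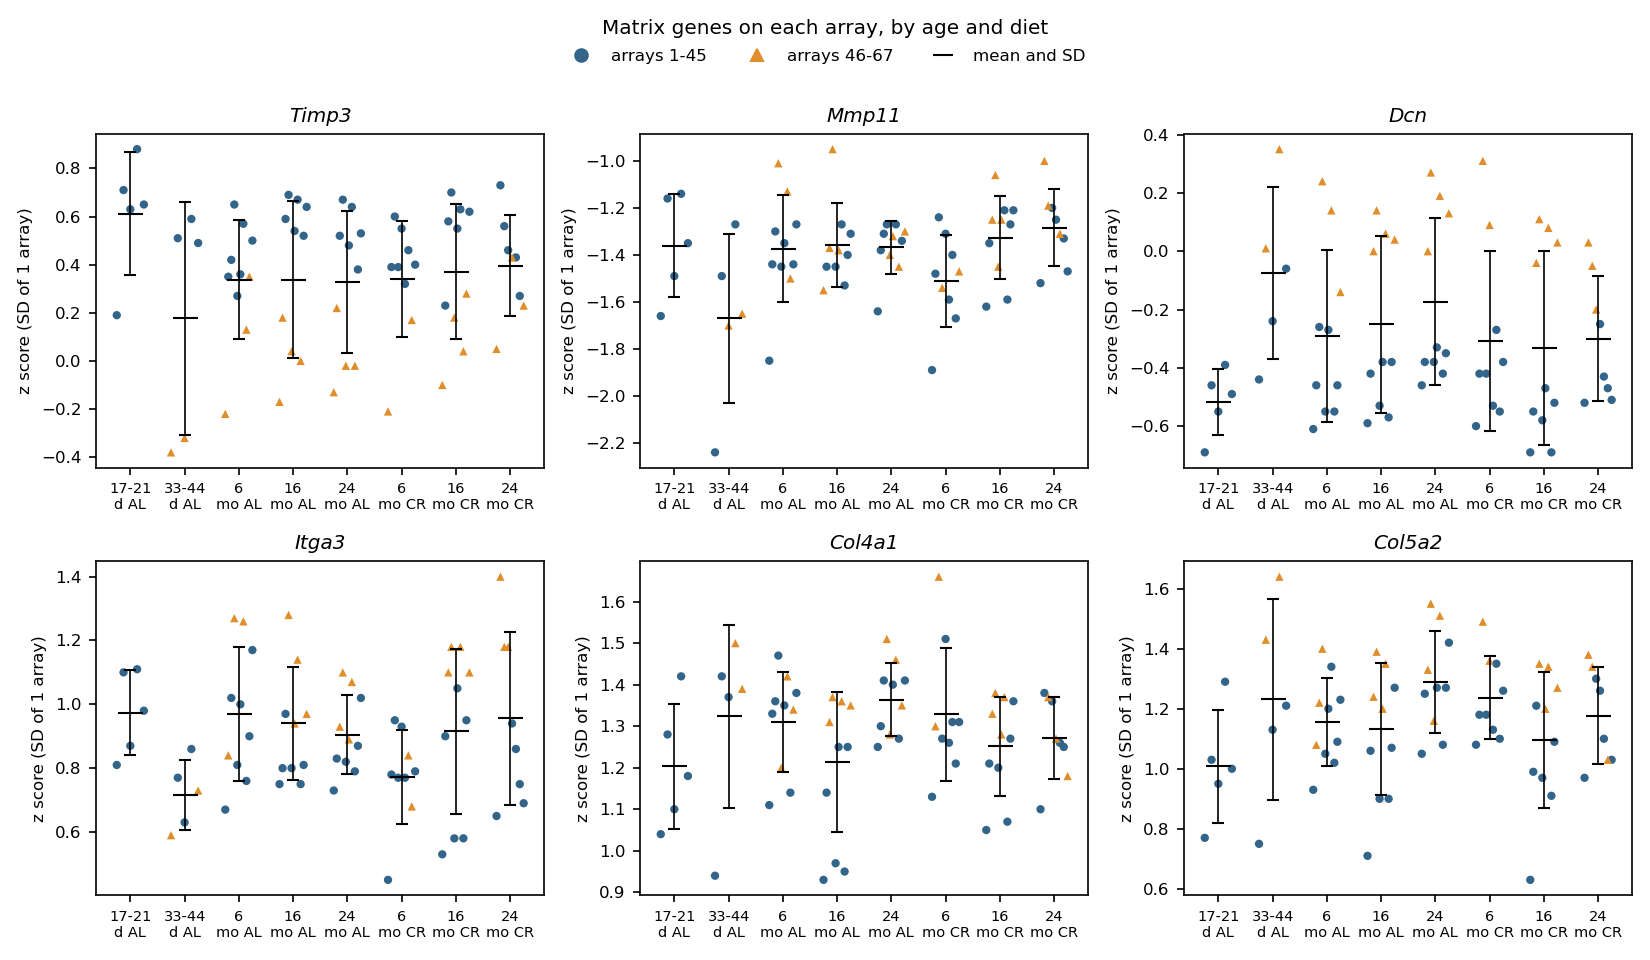
z-scores of 6 matrix genes on every array, by age and diet. Circles are arrays 1-45, triangles arrays 46-67, and bars the mean and SD, with both near-identical 16 months AL arrays drawn and counted as 1 in the mean. In Timp3 and Dcn the 2 array sets lie apart within most groups, and the groups of every panel overlap.

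The basement membrane genes were the collagen IV chains Col4a1, Col4a2 and Col4a5, the collagen XVIII chain Col18a1, whose end fragment is endostatin, the laminin chains Lama3, Lamb1 and Lamc1, the linker protein Nid2 and the heparan sulfate proteoglycan Hspg2 (perlecan). Col4a1 had the smallest unadjusted p among them in the adult AL mice, and it lay between 16 and 24 months on AL. It ran from 1.25 to 1.51 over 10 arrays at 24 months (median 1.38) and from 0.93 to 1.37 over 9 samples at 16 months (median 1.25). The ranges overlapped, and 10 of 10 arrays of 24 months lay above the mean of 16 months. The difference was 0.18 (95% interval 0.039 to 0.31, unadjusted p = 0.0127, adjusted p = 0.646 by limma). It was 0.12 without the near-identical arrays (unadjusted p = 0.0946), 0.26 within arrays 1-45 and 0.053 within arrays 46-67. Col4a1 met the selection rule here, with a z-ratio of 1.68, as did 2.04% of all probes. Its other probe differed by 0.093 (unadjusted p = 0.525). Between 16 and 6 months on AL Col4a1 was lower at 16 months by 0.12 (unadjusted p = 0.0797), and by 0.065 without the near-identical arrays. Col4a1 had the smallest unadjusted p of the 38 genes for the interaction of diet and age (0.137 by limma). The same held for CR against AL at 24 months (0.24 by limma). Both values were below 0 whichever single array was left out, and neither passed. Each such run of the interaction kept at least 1 of the near-identical arrays, whose removal took the AL difference from 0.18 to 0.12.

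Col4a2 encodes the chain that joins 2 Col4a1 chains in the collagen IV trimer, and the 2 genes lie head to head on chromosome 8. At 24 months on AL Col4a2 ran from -0.32 to 0.02 over 10 arrays (median -0.10), and at 6 months from -0.87 to 0.00 over 10 arrays (median -0.22). The ranges overlapped, with 9 of 10 arrays of 24 months above the mean of 6 months. The difference was 0.18 (95% interval 0.0088 to 0.35, unadjusted p = 0.0396, adjusted p = 1 by limma), where Col4a1 differed by 0.054. Between 24 and 16 months on AL Col4a2 differed by 0.061 (0.094 without the near-identical arrays) and Col4a5 by 0.073, and neither passed.

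The laminin chain Lamb1 had group means from -0.66 to -0.28 and its highest mean at 16 months on AL. Its 9 samples of 16 months ran from -0.83 to 0.45 (median -0.41), against -0.87 to -0.27 over 10 arrays at 6 months (median -0.65) and -0.86 to -0.33 over 10 arrays at 24 months (median -0.60). The 3 ranges overlapped. The difference was 0.31 between 16 and 6 months (95% interval -0.031 to 0.65, unadjusted p = 0.0739) and -0.27 between 24 and 16 months (unadjusted p = 0.113), and the adjusted p was 0.999 and 0.902 by limma. Its second probe differed by 0.070 between 24 and 16 months, in the opposite direction. At 33-44 days 1 array, male replicate 1, stood at 1.37 while the other 4 lay between -0.81 and -0.62. Lamc1, the gamma chain that pairs with Lamb1, had group means from 1.10 to 1.28 and was lower at 24 than at 16 months on AL by 0.083 (unadjusted p = 0.212). Lama3 had group means from -0.59 to -0.14, and its SD within groups reached 0.66. Both array sets were present in every group but the youngest.

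Nid2 stood at -0.83, -0.54, -0.54, -0.47 and -0.42 at 17-21 days and at -0.77, -0.45, -0.28, 0.01 and 0.12 at 33-44 days. The 2 highest values were both from arrays 46-67. The difference was 0.31 (95% interval 0.036 to 0.58, unadjusted p = 0.0272, adjusted p = 0.318 by limma), 0.18 with array set as a block and 0.11 within arrays 1-45. Col18a1 had group means from 1.65 to 1.74 z and differed by -0.065 between 24 and 16 months on CR (unadjusted p = 0.225). Hspg2 had group means from 0.60 to 0.91 and differed by -0.059 between CR and AL over 3 ages (unadjusted p = 0.5).

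The other collagens were Col6a1, Col6a4 and Col6a5, chains of the beaded-filament collagen VI, Col8a2, a short-chain collagen of corneal and vascular basement layers, and Col9a3 and Col14a1, chains of collagens that bind to the surface of fibrils. Col6a1 was the member of smallest unadjusted p between the sexes. Over adult ages and both diets it ran from 0.31 to 1.10 in 30 females (median 0.93) and from 0.60 to 1.23 in 27 males (median 1.01), and the ranges overlapped. The difference was -0.095 (95% interval -0.19 to 0.0016, unadjusted p = 0.0537, adjusted p = 1 by limma), -0.098 without the near-identical arrays, 1 of which is counted in each sex here, -0.086 with array set as a block and -0.022 after the deviations of neighbouring spots were subtracted. Col5a2, Adamts19, Timp2 and Col1a2 followed, with differences from -0.096 to 0.077. Col9a3 differed by 0.077 between CR and AL at 16 months (0.14 without the near-identical arrays) and by -0.089 at 24 months (unadjusted p = 0.355 and 0.324), and its interaction of diet and age was -0.17 (unadjusted p = 0.178). Col8a2, with a diet by age interaction of -0.16, and Col6a5, with group means from -0.53 to -0.15, did not pass either. Col6a4 had group means from -0.68 to -0.46 and Col14a1 from -1.01 to -0.67, both lowest at 17-21 days.

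The matrix glycoproteins and small proteoglycans were fibronectin (Fn1), biglycan (Bgn), decorin (Dcn), the collagen-binding protein Sparc and fibulin-2 (Fbln2). Dcn, whose product coats collagen fibrils, stood at -0.69, -0.55, -0.49, -0.46 and -0.39 at 17-21 days and at -0.44, -0.24, -0.06, 0.01 and 0.35 at 33-44 days. All 5 arrays of 33-44 days lay above the mean of 17-21 days, although the lowest of them was within the younger range. The difference was 0.43 (95% interval 0.049 to 0.82, unadjusted p = 0.0279, adjusted p = 0.32 by limma). It was 0.21 with array set as a block (unadjusted p = 0.0135) and 0.27 within arrays 1-45. The second Dcn probe gave 0.23 (unadjusted p = 0.397). Between 6 months and 33-44 days Dcn was lower at 6 months by 0.21 (unadjusted p = 0.211).

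Bgn, a proteoglycan of the same family as decorin, was higher at 24 than at 6 months on AL. It ran from 0.54 to 0.89 over 10 arrays at 24 months (median 0.73) and from 0.39 to 0.84 over 10 arrays at 6 months (median 0.59). The ranges overlapped, and 9 of 10 arrays of 24 months lay above the mean of 6 months. The difference was 0.14 (95% interval 0.0066 to 0.27, unadjusted p = 0.0398, adjusted p = 1 by limma). Bgn met the selection rule with a z-ratio of 1.5, as did 1.5% of all probes. Fn1, which links cells to collagen, had its lowest group mean of 1.38 at 17-21 days and means up to 1.62 in the other groups. Between 6 months and 17-21 days it differed by 0.23 (unadjusted p = 0.0745) and by 0.12 with array set as a block. Sparc had its lowest group mean of 0.60 at 33-44 days and its highest, 0.89, at 24 months on CR, and differed by 0.15 between 6 months and 33-44 days (unadjusted p = 0.155), or by 0.021 without 33-44 days AL female replicate 2. Fbln2 had group means from 0.76 to 0.91.

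The proteases were Mmp2, Mmp7 (matrilysin), Mmp11 (stromelysin-3) and the secreted Adamts10, Adamts12, Adamts17 and Adamts19. Mmp11 had the smallest unadjusted p of the 38 genes between 33-44 and 17-21 days. Its values were -1.66, -1.49, -1.35, -1.16 and -1.14 at 17-21 days and -2.24, -1.70, -1.65, -1.49 and -1.27 at 33-44 days. The ranges overlapped, with 4 of 5 arrays of 33-44 days below the mean of the younger mice. The difference was -0.30 (95% interval -0.54 to -0.052, unadjusted p = 0.0186, adjusted p = 0.296 by limma). It was -0.33 with array set as a block, -0.094 after neighbouring spots were subtracted and -0.19 without 33-44 days AL male replicate 1, the array at -2.24. At 6 months on AL Mmp11 ran from -1.85 to -1.01 (median -1.40), and it was higher than at 33-44 days by 0.27 (unadjusted p = 0.0147, adjusted p = 0.82 by limma), or by 0.15 without that array. On CR it was higher at 24 than at 6 months by 0.21, from -1.52 to -1.0 over 8 arrays (median -1.28) against -1.89 to -1.24 over 9 arrays (median -1.48, unadjusted p = 0.0274, adjusted p = 1 by limma). The spot was dim, below its array's mean on every array.

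Mmp2, which cuts collagen IV and denatured collagen, stood at -0.09, 0.04, 0.07, 0.50 and 0.52 at 17-21 days and at 0.15, 0.55, 0.60, 1.18 and 1.33 at 33-44 days. The 2 highest values were those of arrays 46-67. The difference was 0.56 (unadjusted p = 0.0442, adjusted p = 0.35 by limma), 0.26 with array set as a block (unadjusted p = 0.064) and 0.25 within arrays 1-45. Between 6 months and 17-21 days it was 0.39, and 0.17 with the block. Mmp7, with an SD from 0.33 to 0.58 within a group, differed by -0.29 between 24 and 16 months on CR and by 0.25 between CR and AL at 16 months (unadjusted p = 0.224 and 0.251), the former being -0.12 without 24 months CR male replicate 2 and the latter 0.055 without the near-identical arrays. Inside arrays 1-45 Mmp7 took a step: it ran from -1.61 to -0.94 on arrays 1-22 and from -2.36 to -1.72 on arrays 23-45. Adamts19 ran from 1.27 to 1.86 and from 1.1 to 1.38 on the same arrays, with overlap. No fit took this step as a block, and its part in the Mmp7 and Adamts19 differences was not tested. Adamts19 differed by -0.23 between 24 and 6 months on CR, and Adamts12 by 0.081 between CR and AL at 16 months (unadjusted p = 0.135 and 0.311). Group means ran from 1.18 to 1.44 for Adamts19, from 1.12 to 1.31 for Adamts17, from -1.53 to -1.45 for Adamts12, from 0.37 to 0.68 for Adamts10 and from -1.69 to -1.19 for Mmp7.

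The Timp genes encode inhibitors that bind metalloproteinases, and Timp3 is the form held in the matrix. Timp3 stood at 0.19, 0.63, 0.65, 0.71 and 0.88 at 17-21 days and at -0.38, -0.32, 0.49, 0.51 and 0.59 at 33-44 days. The 2 negative values were the arrays of the later set, and the other 3 fell inside the younger range. The difference was -0.46 (95% interval -0.85 to -0.073, unadjusted p = 0.0206, adjusted p = 0.297 by limma), -0.25 with array set as a block and -0.098 within arrays 1-45. Over the 6 adult groups its means lay between 0.33 and 0.40, a span smaller than the SD within any of them, the lowest of which was 0.21.

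Timp4 stood at 0.05, 0.10, 0.22, 0.24 and 0.25 at 17-21 days and at 0.12, 0.22, 0.23, 0.56 and 0.75 at 33-44 days, where the 2 highest arrays were of the later set. The difference was 0.22 (unadjusted p = 0.0431, adjusted p = 0.348 by limma) and 0.0067 within arrays 1-45. Without the 33-44 days AL female replicate 1 array it was 0.38 and passed (adjusted p = 0.0407 by limma), when the remaining female array came from the later set and 441 of all probes passed. Among adults, Timp4 ran from 0.08 to 0.35 over 10 arrays at 24 months on AL (median 0.31) and from 0.21 to 0.54 over 9 samples at 16 months (median 0.42). The ranges overlapped, with 10 of 10 arrays of 24 months below the mean of 16 months. The difference was -0.14 (95% interval -0.29 to 0.0085, unadjusted p = 0.0642, adjusted p = 0.79 by limma), and -0.12 without the near-identical arrays. On CR the same ages differed by -0.11 (unadjusted p = 0.192), and by 0 without 24 months CR male replicate 2. Timp2, with group means from -1.52 to -1.27, had the smallest unadjusted p between the diets over 3 ages, at 0.292, with a difference of -0.072. All 3 Timp genes had a lower mean at 24 than at 16 months on AL, with a median difference of -0.12 beside -0.0040 over all probes, and 2 of 3 did without the near-identical arrays.

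The integrins were Itga3, a laminin-binding alpha chain, Itgb1, the beta chain shared by most matrix receptors, and Itgb7, a leukocyte beta chain. Itga3 had values of 0.81, 0.87, 0.98, 1.10 and 1.11 at 17-21 days and of 0.59, 0.63, 0.73, 0.77 and 0.86 at 33-44 days. With array set as a block this was the smallest p of the 38 genes (difference -0.34, unadjusted p = 0.00257, adjusted p = 0.113 by limma), when 0.829% of all probes passed. Without the block the difference was -0.25, and after neighbouring spots were subtracted it was -0.093. At 6 months on AL Itga3 ran from 0.67 to 1.27 (median 0.95), higher than at 33-44 days by 0.24 (unadjusted p = 0.0326, adjusted p = 0.875 by limma), and it met the selection rule with a z-ratio of 1.83, as did 0.639% of all probes.

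At 6 months Itga3 was lower on CR, from 0.45 to 0.95 over 9 arrays (median 0.78). All 9 CR arrays lay below the AL mean, although the ranges overlapped. The difference was -0.19 (95% interval -0.38 to -0.012, unadjusted p = 0.0372, adjusted p = 1 by limma). It was -0.13 within arrays 1-45, -0.29 within arrays 46-67 and -0.16 after neighbouring spots were subtracted (unadjusted p = 0.00622). Itga3 met the selection rule, with a z-ratio of -2.78, as did 0.343% of all probes. Over 3 adult ages the diet difference was -0.052 (95% interval -0.16 to 0.055). Itgb7 had group means from 0.78 to 1.05, lowest at 17-21 days. Itgb1 had group means from -1.46 to -1.33 and differed by 0.12 between CR and AL at 6 months (unadjusted p = 0.0922). Between 16 and 6 months on AL it differed by 0.11 (unadjusted p = 0.112), and after neighbouring spots were subtracted by 0.13 (unadjusted p = 0.00591). Without 6 months AL female replicate 5, which stood at -2.04, the diet difference was 0.059 and the age difference 0.049.

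Diet over 3 adult ages and sex gave the narrowest intervals, of equal width. All 38 differences between CR and AL lay between -0.072 and 0.074 z, with a median of -0.0025 beside -0.0006 over all probes, and the median 95% interval reached 0.12 to either side. Between females and males they lay between -0.099 and 0.077, with a median of -0.013 beside 0.0014. Over the 38 genes the intervals reached from 0.059 to 0.28 to either side. A difference of a size under its interval could not be told from 0 here. The intervals are unadjusted, so a larger difference could also miss the adjusted p of 0.05. For the interaction of sex and age the median interval reached 0.39 to either side, and Col5a1, Itga3, Col18a1, Mmp11 and Bgn came first, with interactions from -0.22 to 0.22 and unadjusted p from 0.219 to 0.393.

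**Figure D3:**
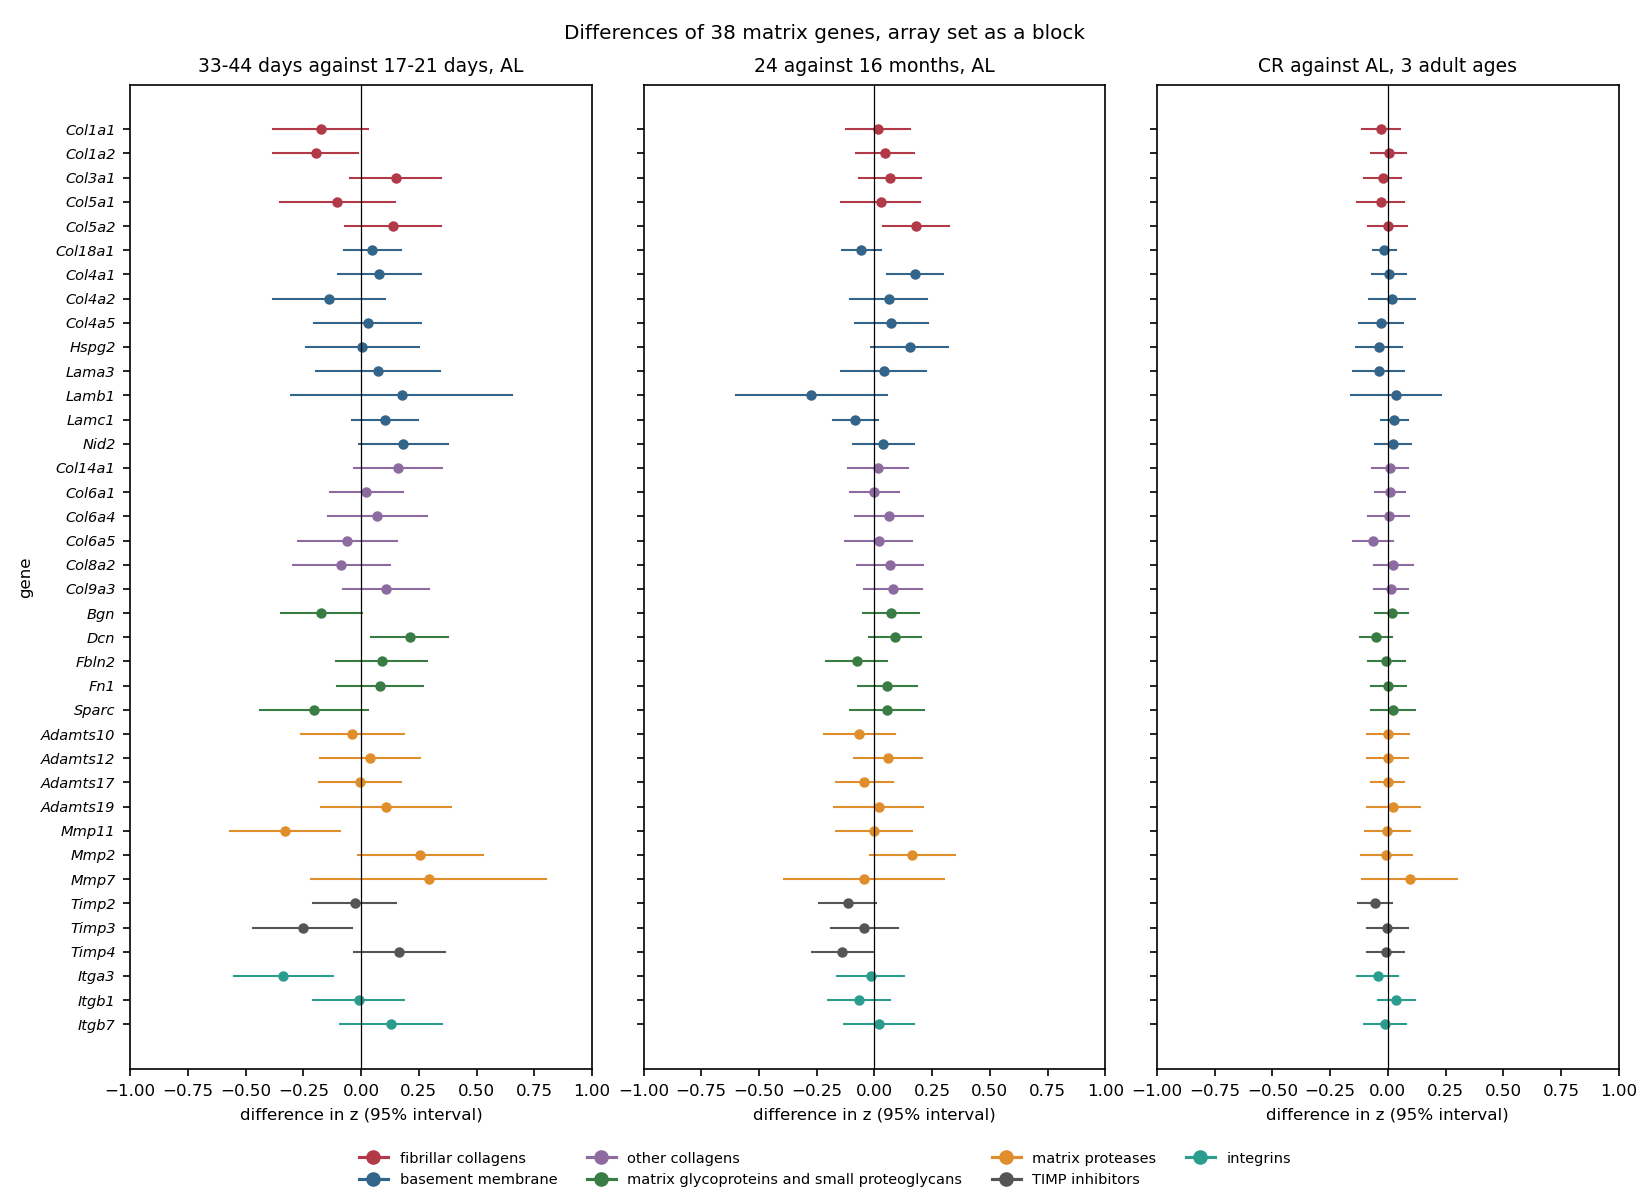
Differences of the 38 matrix genes in z, with 95% intervals, from the fit with array set as a block, for 3 comparisons. Genes are grouped and coloured by role. Intervals are widest for the youngest groups of 5 arrays each, and for CR against AL over 3 ages they all include 0.

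Genes around this set but outside it were 36 measured genes of collagen processing, brain matrix, integrin adhesion signaling and TGF-beta signaling, and 0 of them passed in any of the 15 comparisons by limma, with or without array set as a block. Between 24 and 16 months on AL the 10 collagen processing genes had 5 higher and 5 at or below 0, including the collagen chaperone Serpinh1 at 0.058 z. The 5 TGF-beta genes had 4 higher, with a median of 0.094 beside -0.0040 over all probes. The 10 brain matrix genes, such as tenascin C (Tnc, 0.094) and versican (Vcan, -0.062), had 4 higher. In adhesion signaling the GTPase Rac1 differed by 0.24 (unadjusted p = 0.00806, adjusted p = 0.646 by limma). Of the 4 measured markers of meningeal fibroblasts, 2 were higher and 2 lower, from -0.055 to 0.26, the highest being Slc6a13. Of the pericyte and smooth muscle markers, Acta2 differed by -0.17 (unadjusted p = 0.0472) and Pdgfrb by 0.071. Over the 17 markers 0 passed in any comparison (limma), the smallest adjusted p being 0.13. With array set as a block 1 passed, the red blood cell anion exchanger gene Slc4a1 between 33-44 and 17-21 days (difference -0.37, unadjusted p = 0.000323), and the 3 other red cell markers did not. The part of these cell types in the collagen differences was not tested.

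Chains that assemble together were compared across arrays. Deviations from the mean of the group and of the array set were correlated over 65 arrays, without the near-identical pair, for 11 pairs of chains and partners (two-sided permutation test of 100000 resamples within array set, Benjamini-Hochberg over the 11). The resamples treat the arrays of a set as interchangeable. A step inside arrays 1-45, as in Mmp7 at array 23, was not removed, so the permutation p-values can be too small. Of the 11 pairs, 7 had an adjusted p under 0.05, with r above 0 in 3 and below 0 in 4. Col3a1 and Col5a2, neighbouring genes on chromosome 1, correlated at r = 0.70 (rho = 0.74, p = 1e-05, the smallest the resamples can give, adjusted p = 3.67e-05, r = 0.72 without the 2 arrays farthest from the median). Col1a1 and Sparc gave r = 0.66 (rho = 0.63, permutation p = 1e-05, adjusted 3.67e-05, r = 0.63 without the 2 arrays). Col1a1 and Col1a2, the chains of the collagen I trimer, gave r = 0.43 (rho = 0.38, permutation p = 0.00045, adjusted 0.00124, r = 0.35 without the 2 arrays).

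The 4 negative pairs also included chains of common structures. Col4a1 and Col4a2 gave r = -0.38 (rho = -0.36, permutation p = 0.00187, adjusted 0.00411), and r = -0.46 after neighbouring spots were subtracted. Lamb1 and Lamc1 gave r = -0.35 (rho = -0.31, permutation p = 0.00606, adjusted 0.00952). Col1a1 and Col3a1 gave r = -0.54 (rho = -0.52, permutation p = 1e-05, adjusted 3.67e-05), and Col1a2 and Col3a1, whose upstream windows are printed above, gave r = -0.36 (rho = -0.35, permutation p = 0.00367, adjusted 0.00673). Without the 2 arrays farthest from the median these 4 values were -0.37, -0.24, -0.56 and -0.25. In adult arrays Lamb1 and Lamc1 gave -0.15 (adjusted permutation p = 0.333) and Col1a2 and Col3a1 -0.26 (adjusted permutation p = 0.115), and neither passed there. The other 4 pairs, Col5a1 with Col5a2, Mmp2 with Timp2, Bgn with Dcn and Col4a1 with Sparc, lay between -0.028 and 0.25.

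These correlations stood against a wide background. Over all pairs of probes on the filter the middle 90% of r ran from -0.46 to 0.52, and 32.7% of pairs reached 0.3 in size, as did 38.3% of the 703 pairs of the 38 matrix genes. Of the 11 chain and partner pairs, 7 (63.6%) reached this size. Probes of the same gene were set against each other in the same way. The 9 genes with several probes gave 16 probe pairs, chosen for this check after values had been seen, and 7 had r above 0 and 9 below 0, with a median of -0.17 and a range from -0.51 to 0.45. The Dcn probes correlated at -0.50, those of Timp2 at -0.38 and those of Adamts17 at -0.37, while those of Lamc1 gave 0.42. Among other genes of the pairs above, the probes of Lamb1 gave -0.32, those of Col4a1 -0.24 and those of Col1a2 -0.22. The Col3a1 probe used in the pairs gave 0.0010, -0.12 and 0.37 with the other probes of that gene. After the deviations of neighbouring spots were subtracted, 4 of the 11 chain and partner pairs had an adjusted p under 0.05: Col3a1 with Col5a2 (r = 0.50), Col1a1 with Col1a2 (0.46), Col5a1 with Col5a2 (0.33) and Col4a1 with Col4a2 (-0.46). Col1a1 and Sparc then gave 0.19, Lamb1 and Lamc1 -0.19, Col1a1 and Col3a1 -0.22, and Col1a2 and Col3a1 0.026. The probes of the same gene still ran from -0.47 to 0.51. By the same permutation test 8 of their 16 pairs then had an adjusted p under 0.05, 3 with r above 0 and 5 below 0. The probes of Col4a1 then gave 0.34, those of Lamb1 -0.073 and those of Col1a2 -0.23. The Col3a1 probe used in the pairs gave 0.135, -0.029 and -0.047 with the other probes of that gene. The spread of r over all pairs of probes was computed only before this subtraction.

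**Figure D4:**
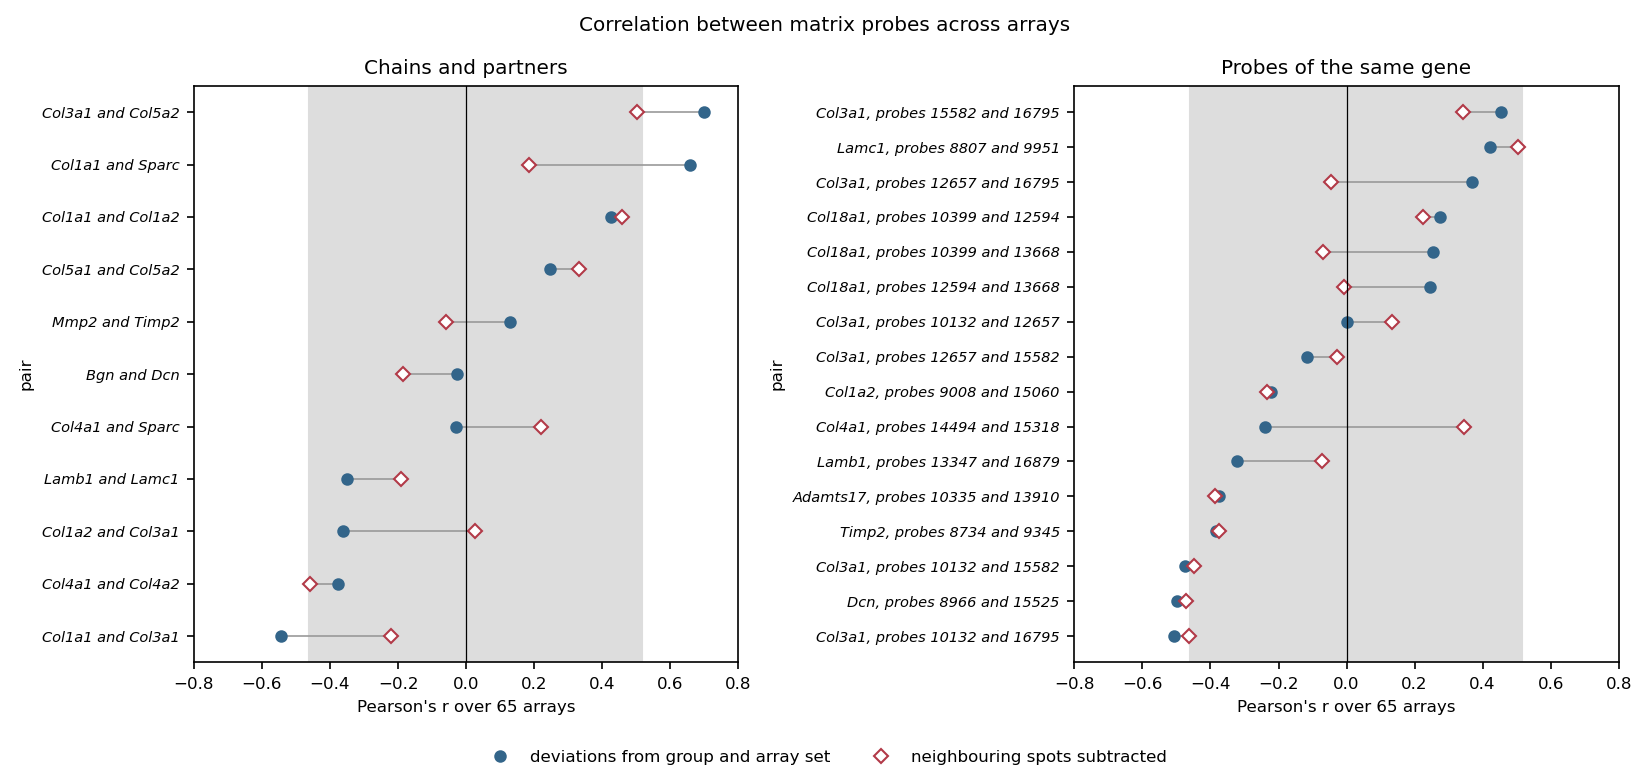
Pearson's r across 65 arrays for 11 pairs of chains and partners (left) and 16 pairs of probes of the same gene (right), from deviations from group and array set (circles) and with the deviations of neighbouring spots subtracted (diamonds). The grey band holds the middle 90% of r over all pairs of probes on the filter before that subtraction, from -0.46 to 0.52. It is the background of the circles only, and most circles lie inside it.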

How the data were processed

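Cortex RNA of 67 mice was labelled with 33P per the labels (the study's methods name another isotope) and hybridised to 1 filter each. The authors deposited z-scores: the log intensity of each spot scaled within its array to mean 0 and SD 1. This score is the unit throughout. Background treatment and log base are not given. Groups follow the labels (age, diet, sex); 1 array whose description names another mouse was placed by its title and characteristics. Group means over all 67 arrays were fitted with limma 3.58.1 in R 4.3.3, sexes weighted equally, with Benjamini-Hochberg adjustment over 8448 probes and two-sided p-values. Labels give no replicate numbers beyond the animals, so p-values measure the spread between arrays of 1 mouse each. Spread between mice and spread between arrays cannot be told apart. Without the block this spread also holds the step between array sets. A step at array 23 within arrays 1-45, seen in Mmp7, was not a block in any fit. The median SD of the members within groups was 0.219 z, and 0.159 z with array set removed as well. Probes of 1 gene were averaged in 1 alternative only. Neighbour correction subtracted the mean deviation of nearby spots in an inferred layout of 16 blocks of 24 rows and 22 columns, with array set as a block. For each comparison the 5 members of smallest unadjusted p were taken as named (0 passed), and not all of their differences are printed. Levels are given for fibrillar collagens, laminins, Timp genes and the 8 members of highest and 4 of lowest mean z. Each pair passing is given. Members and lists were chosen with earlier results of these data known. All 38 members matched RefSeq by gene number. Alternatives were array set and array cycle as blocks, fits within each array set, other scaling, centring, filters and probes, and leaving out arrays. Scripts were tested on simulated data.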

Additional observations from a re-analysis of the deposited data

Results flagged for a closer look

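In 2 of 87 member and group combinations tested (2.3%, where chance flags about 1 in 20), a single array stood far from the rest. Itgb1 at 6 months on AL was -2.04 on female replicate 5, and the other 9 arrays lay between -1.59 and -1.17. Timp4 at 16 months on CR was -0.04 on female replicate 3, and the other 9 arrays lay between 0.35 and 0.47.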

How the results depend on the processing

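The count of members passing stayed at 0 under every scaling, centring, filter, block and near-identical array setting in all 15 comparisons. Under the selection rule it was 1 (of 38) in each of 5 comparisons: 6 months against 17-21 days, 6 months against 33-44 days, 24 against 16 and 24 against 6 months on AL, and CR against AL at 6 months. Leaving out 1 array gave counts from 0 to 1 between 33-44 and 17-21 days, where the 1 was Timp4 (0.38, adjusted p = 0.0407 by limma) without 33-44 days AL female replicate 1, and 0 elsewhere. Of 75 named differences, 41 moved by over 1.5 times without some array and 2 of these reached 0 or changed sign. With neighbouring spots subtracted, 4 of 11 chain and partner pairs passed in place of 7, and 5 with adult arrays only. No paired analysis was possible because the labels give no replicate numbers; array cycle is a block by array number.

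Of 2695 recomputed values of named members and pairs, 24 changed sign. With neighbouring spots subtracted these were Timp3 at 6 months against 17-21 days (0.0016), Lamc1 at 24 against 16 months on AL (0.023), Col1a2 between sexes (-0.0065), and the pairs Col1a2 and Col3a1 (r = 0.026), Col4a1 and Sparc (0.22) and Mmp2 and Timp2 (-0.060); in adult arrays it was Bgn and Dcn (0.042). With the mean of all probes of a gene they were Timp2 for diet over 3 ages (0.010), Col1a2 between sexes (-0.0042) and Col18a1 for sex by age (0.0073). Within arrays 46-67 they were Col4a1 at 16 against 6 months on AL (0.023), Mmp7 (0.068) and Sparc (-0.028) at 24 against 16 months on CR, Col5a1 at 24 against 6 months on CR (-0.023), Mmp7 (-0.070), Col4a1 (-0.0075) and Col9a3 (-0.0025) for diet at 16 months, Itga3 (0.0008) and Itgb1 (-0.0058) for diet over 3 ages, Lamb1 for diet by age (-0.060), and Col5a1 (-0.015), Col18a1 (0.085) and Bgn (-0.13) for sex by age. Leaving out 1 array, Col9a3 for diet at 24 months ran from -0.16 to 0.0030, the latter without 24 months CR male replicate 3. The cause was not tested.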
